A study of Mus musculus with 56 samples.

Results

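Liver mRNA of the early mevalonate pathway enzymes was examined in 56 female APOE*3Leiden.CETP mice. The set consisted of 8 genes, Acat2, Hmgcs1, Mvk, Pmvk, Mvd, Idi1, Fdps and Ggps1, chosen by name and matched to the Ensembl identifiers of the count tables through GENCODE vM21, and it made up 8 of the 45513 genes counted. All 8 passed the filter on low counts, along with the rest of the 14314 genes tested. APOE*3Leiden.CETP mice carry human transgenes that give them a human-like lipoprotein profile and make them prone to atherosclerosis when they eat cholesterol. All animals were 9 to 14 weeks of age at the start and ate a Western-type diet with 15% cacao butter and 0.15% cholesterol. Controls received vehicle (5% carboxymethyl cellulose) by gavage. The BCR-ABL1 tyrosine kinase inhibitors were nilotinib at 10 or 30 mg/kg and ponatinib at 3 or 10 mg/kg, given 1 time a day, and imatinib at 150 mg/kg, given 2 times a day. The last group drank L-NAME, an inhibitor of nitric oxide synthase, at 0.12 to 0.2% in water and received vehicle by gavage. A group held 8 mice, and each liver was sequenced separately. Treatment lasted 16 weeks after a run-in of 3 weeks on the diet for the drug and control groups, whereas the duration for L-NAME is not given in the sources used here. The mice had no leukemia, the disease these drugs treat, and their human CETP transgene is driven by its own flanking sequences.

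The mevalonate pathway turns acetyl-CoA into isoprenoid building blocks and, from these, cholesterol. In the liver its genes are the classic targets of SREBP-2, a membrane-bound transcription factor that is released when sterols in the endoplasmic reticulum run low and held back by INSIG and SCAP when sterols are plentiful. ACAT2 joins acetyl-CoA units and HMGCS1 adds a further unit to give HMG-CoA, from which mevalonate is made. MVK, PMVK and MVD then phosphorylate mevalonate in steps and decarboxylate it to isopentenyl diphosphate. IDI1 isomerizes this unit, FDPS links units to farnesyl diphosphate, and GGPS1 extends it to geranylgeranyl diphosphate, which is used to prenylate proteins rather than to make sterols.

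Promoters of the members are shown because the factor named above acts through short DNA motifs near the start site. RefSeq (GRCm38.p6) gave a window of 250 bases before and 50 bases after the start for 7 of the 8 members, 8 windows in all because Pmvk had 2; Fdps had no entry. The windows printed are those of Hmgcs1 (chr13:119690101-119690400, plus strand), Mvd (chr8:122443373-122443672, minus strand), Acat2 (chr17:12960676-12960975, minus strand) and Ggps1 (chr13:14063439-14063738, minus strand), so that 3 enzymes whose mRNA differed between groups stand beside the one with the flattest profile. Each is written from 5′ to 3′ on the strand of the gene, and capitals mark a sterol regulatory element (SRE, TCACNCCAC) or a CCAAT box (CCAAT), on either strand.
Hmgcs1: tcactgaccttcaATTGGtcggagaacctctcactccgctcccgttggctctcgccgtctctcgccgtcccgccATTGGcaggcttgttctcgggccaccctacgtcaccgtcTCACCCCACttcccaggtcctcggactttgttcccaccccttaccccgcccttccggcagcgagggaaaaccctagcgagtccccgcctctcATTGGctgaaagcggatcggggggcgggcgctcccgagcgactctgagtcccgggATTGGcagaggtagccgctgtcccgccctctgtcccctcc
Mvd: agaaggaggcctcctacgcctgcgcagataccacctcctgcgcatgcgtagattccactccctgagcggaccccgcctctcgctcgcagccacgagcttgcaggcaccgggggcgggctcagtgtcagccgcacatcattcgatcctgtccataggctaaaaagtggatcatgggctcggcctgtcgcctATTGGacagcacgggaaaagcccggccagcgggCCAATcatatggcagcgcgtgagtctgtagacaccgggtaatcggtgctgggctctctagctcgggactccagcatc
Acat2: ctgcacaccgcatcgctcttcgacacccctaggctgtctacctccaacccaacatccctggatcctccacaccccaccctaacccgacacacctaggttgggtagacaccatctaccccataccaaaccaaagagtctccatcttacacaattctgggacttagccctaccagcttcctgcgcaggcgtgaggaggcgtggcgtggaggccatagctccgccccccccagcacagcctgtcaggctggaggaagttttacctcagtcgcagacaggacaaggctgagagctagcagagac
Ggps1: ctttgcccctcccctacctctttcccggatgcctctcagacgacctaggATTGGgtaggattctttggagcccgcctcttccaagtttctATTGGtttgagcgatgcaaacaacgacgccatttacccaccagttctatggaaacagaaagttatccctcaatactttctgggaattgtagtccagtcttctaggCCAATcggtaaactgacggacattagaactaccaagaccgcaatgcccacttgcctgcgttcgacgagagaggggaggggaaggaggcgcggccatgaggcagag
The SRE letters occurred in 1 of the 8 windows, that of Hmgcs1, as TCACCCCAC starting 137 bases before the start site (position -137), against 1.24% of all 32851 RefSeq promoter windows. CCAAT was present in 6 of the 8 windows, with 5 copies in Mvk and 4 in Hmgcs1, against 37.4% of all windows. The GC box GGGCGG, which is not capitalized, was found in 5 of the 8 windows against 35.7% of all. No marked motif overlapped another. Ggps1 carried 3 CCAAT boxes and Acat2 none, and a match is a string of letters in a window and not a measured binding site.

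Reads assigned to genes ranged from 5342379 to 97473341 per liver with a median of 7570238; the highest value was an L-NAME library and the next was 17996732. The 8 members together took 0.0412% of all reads. Hepatocyte markers (Alb, Apoa1, Apoa2, Cps1, Ahsg, Tat) summed to between 66771 and 144183 CPM (read counts scaled to a common library size) over all livers. Of these 6 markers, 2 were higher and 1 lower than in controls with ponatinib 10 mg/kg, 2 higher and 2 lower with imatinib, nilotinib 30 mg/kg and L-NAME each, 2 lower with nilotinib 10 mg/kg and 0 either way with ponatinib 3 mg/kg. Markers of fat (Adipoq, Plin1, Lep) stayed at or below 3.24 CPM in sum and those of exocrine pancreas at or below 4.50 CPM. Kupffer cell markers summed to 345 to 762 CPM with imatinib and 650 to 1319 CPM in controls, and 2 of the 6 were lower with imatinib. With ponatinib 10 mg/kg the same sum ranged from 346 to 1960 CPM, and 2 of the 6 markers were higher. Nilotinib 30 mg/kg and L-NAME each had 1 of the 6 higher. A stellate cell marker was lower with imatinib and with either ponatinib dose, 1 of 6 in each, and no marker of sinusoidal endothelium, cholangiocytes or lymphocytes was called in any drug group or with L-NAME. The part of cell composition in the values that follow was not tested, and in bulk tissue fewer cells of a type and less RNA per cell cannot be told apart.

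Per kilobase of exon, mean levels in controls were ordered Hmgcs1 (51.6 CPM per kb), Pmvk (23.4), Acat2 (19.6), Mvd (9.56), Mvk (4.24), Fdps (2.36), Ggps1 (1.48) and Idi1 (0.675 CPM per kb). The levels of Fdps, Idi1 and Acat2 are uncertain because other genes share their sequence. Of all 50-base stretches in the transcripts of Acat2, 39.1% also occurred in another gene, mainly its neighbour Acat3, and the shares were 26.2% for Fdps and 25.3% for Idi1. For Mvd and Pmvk the share was 0%, and for Mvk 0.712%. The exons of Fdps overlapped those of Gm43738, a gene model that spans Fdps and its neighbour Rusc1 and had a median of 0 reads, over 26.7% of their length; HTSeq by default assigns reads in such an overlap to neither gene, and the setting used is not given in the sources used here. Gm3571, a processed pseudogene of Fdps, drew a median of 393 reads per liver against 87 for Fdps itself. Across the 56 livers its log2 CPM followed that of Fdps with r = 0.77, and with r = 0.71 after the group means were removed; the points share their libraries and, in part, their sequence. Acat3 did not follow Acat2 in this way (r = -0.16 over the same 56 livers). It is a protein-coding gene with a median of 1349 reads per liver against 429 for Acat2. Adding its reads to those of Acat2 draws the fold change of the sum toward that of Acat3. Such a sum cannot show whether reads of Acat2 were assigned correctly. Whether reads were assigned to the right copy was not tested.

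**Figure D1:**
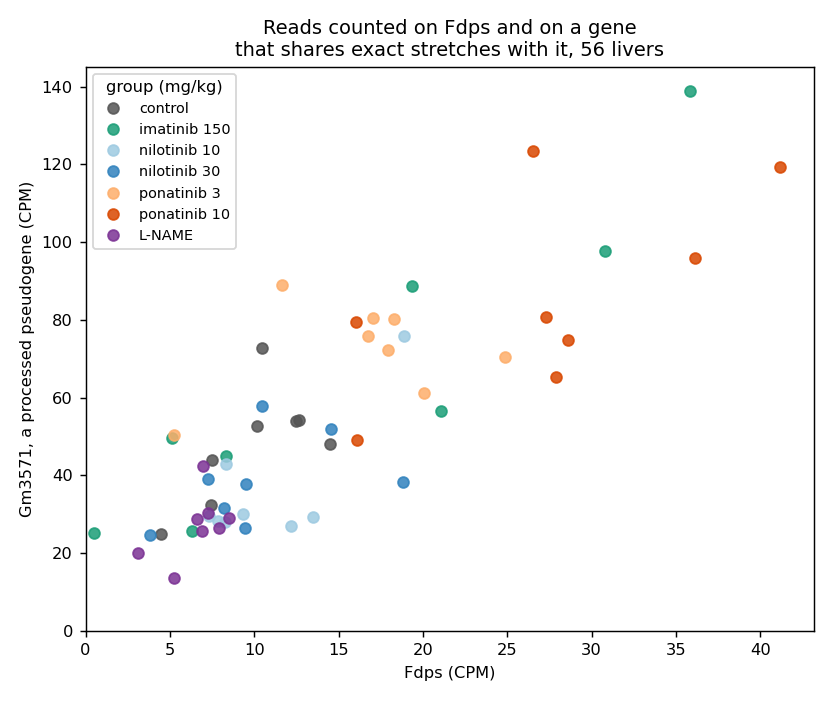
CPM of Fdps (horizontal axis) and of its processed pseudogene Gm3571 (vertical axis); each point is 1 liver and colours give the 7 groups. Livers high in Fdps were also high in Gm3571, up to 139 CPM of the pseudogene in an imatinib liver, and the L-NAME livers lie at the low end of both axes.

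Whether a member differed among any of the 7 groups was asked first. In edgeR's quasi-likelihood test, 5 of the 8 members passed at a Benjamini-Hochberg adjusted p below 0.05, while 18.7% of all genes tested did. Mvd had the smallest adjusted p (3.89e-06, rank 33 of all genes), followed by Acat2 (5.30e-06, rank 37), Hmgcs1 (4.25e-05), Pmvk (0.000128) and Fdps (0.000232). Idi1 did not pass (adjusted p = 0.0776), nor did Mvk (0.76) or Ggps1 (0.99). The 5 members that passed include both enzymes that make HMG-CoA and the decarboxylase and farnesyl diphosphate synthase further down.

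Ponatinib at 10 mg/kg gave the clearest difference from control. Acat2, Hmgcs1, Pmvk, Mvd and Fdps were higher, 5 of the 8 members, against 7.24% of all genes called higher. The median log2 fold change of the 8 members was 0.86, and that of all genes was -0.01. At an unadjusted p below 0.01, the members counted were also 5, against 8.19% of all genes. The same 8 control livers serve every comparison with control below.

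Of the enzymes that make HMG-CoA, Acat2 (ENSMUSG00000023832, chr17:12942890-12960747, minus strand), the cytosolic acetoacetyl-CoA thiolase, had 34.2, 53.9 and 62.1 CPM in controls as lowest, median and highest value, and 56.3, 91.8 and 128 CPM with ponatinib 10 mg/kg. The groups overlapped by a single treated liver, since 7 of the 8 lay above every control. The log2 fold change was 0.87 ± 0.18 (SE, 1.83-fold, adjusted p = 0.000834 by edgeR; exact two-sided permutation test p = 0.000622, n = 8 and 8). When reads of Acat3 were added to those of Acat2, the log2 fold change was 0.38 (adjusted p = 0.0112), a smaller difference that also passed. Acat3 alone had 0.18 (adjusted p = 0.401). Hmgcs1 (ENSMUSG00000093930, chr13:119690379-119708260, plus strand), the cytosolic HMG-CoA synthase whose promoter held the SRE letters, had 171, 238 and 300 CPM in controls and 253, 411 and 542 CPM with ponatinib. Here 6 of the 8 treated livers exceeded every control. The log2 fold change was 0.72 ± 0.22 (SE, 1.65-fold, adjusted p = 0.0225; exact permutation p = 0.00311). Leaving out ponatinib 10 mg/kg mouse 6 ended this call (log2 fold change 0.64, adjusted p = 0.0604).

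Of the mevalonate kinase and decarboxylase steps, Mvk (ENSMUSG00000041939, chr5:114444269-114460591, plus strand), the kinase that acts on mevalonate itself, had 6.60, 11.0 and 17.0 CPM in controls and 3.68, 14.9 and 24.3 CPM with ponatinib 10 mg/kg. Treated livers lay both above and below the control range, 4 above and 2 below, and the log2 fold change of 0.35 ± 0.34 did not pass (adjusted p = 0.581; exact permutation p = 0.758). Pmvk (ENSMUSG00000027952, chr3:89454541-89469013, plus strand), phosphomevalonate kinase, had 27.5, 42.1 and 49.6 CPM in controls and 30.4, 77.1 and 129 CPM with ponatinib. All treated livers but the lowest lay above every control, with a log2 fold change of 0.97 ± 0.25 (SE, 1.96-fold, adjusted p = 0.00611; exact permutation p = 0.00404). Mvd (ENSMUSG00000006517, chr8:122433601-122443422, minus strand), the decarboxylase, had 11.1, 16.5 and 28.3 CPM in controls and 27.0, 38.5 and 110 CPM with ponatinib. Only the lowest treated liver fell inside the control range. Its log2 fold change, 1.61 ± 0.35 (SE, 3.05-fold, adjusted p = 0.00109; exact permutation p = 0.000311), was the highest of the 8 members.

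Of the isoprenoid enzymes, Idi1 (ENSMUSG00000058258, chr13:8885501-8892451, plus strand), the isomerase, was counted with only 7 to 35 reads in a control liver. It had 0.943, 2.41 and 3.71 CPM in controls and 1.75, 3.98 and 6.94 CPM with ponatinib 10 mg/kg, and 5 treated livers exceeded every control. The log2 fold change of 0.85 ± 0.73 did not pass in the fit over all genes (adjusted p = 0.504), while the exact permutation test on Idi1 alone gave p = 0.0138. Fdps (ENSMUSG00000059743, chr3:89093588-89101959, minus strand), farnesyl diphosphate synthase, had 4.44, 10.3 and 14.5 CPM in controls and 16.1, 27.6 and 41.2 CPM with ponatinib. The groups did not overlap, which held for 1 of the 8 members and for 0.454% of all genes in the higher direction. The log2 fold change was 1.46 ± 0.35 (SE, 2.74-fold, adjusted p = 0.00313; exact permutation p = 0.000155, the smallest this design can give). With reads of its pseudogenes added it was 0.92 (adjusted p = 0.00578). Ggps1 (ENSMUSG00000021302, chr13:14050659-14063488, minus strand), which leads to geranylgeranyl diphosphate, had 3.16, 6.71 and 13.2 CPM in controls and 2.92, 5.43 and 10.2 CPM with ponatinib. These ranges overlapped almost fully, with a log2 fold change of -0.22 ± 0.29 (95% interval -0.80 to 0.37, adjusted p = 0.71).

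**Figure D2:**
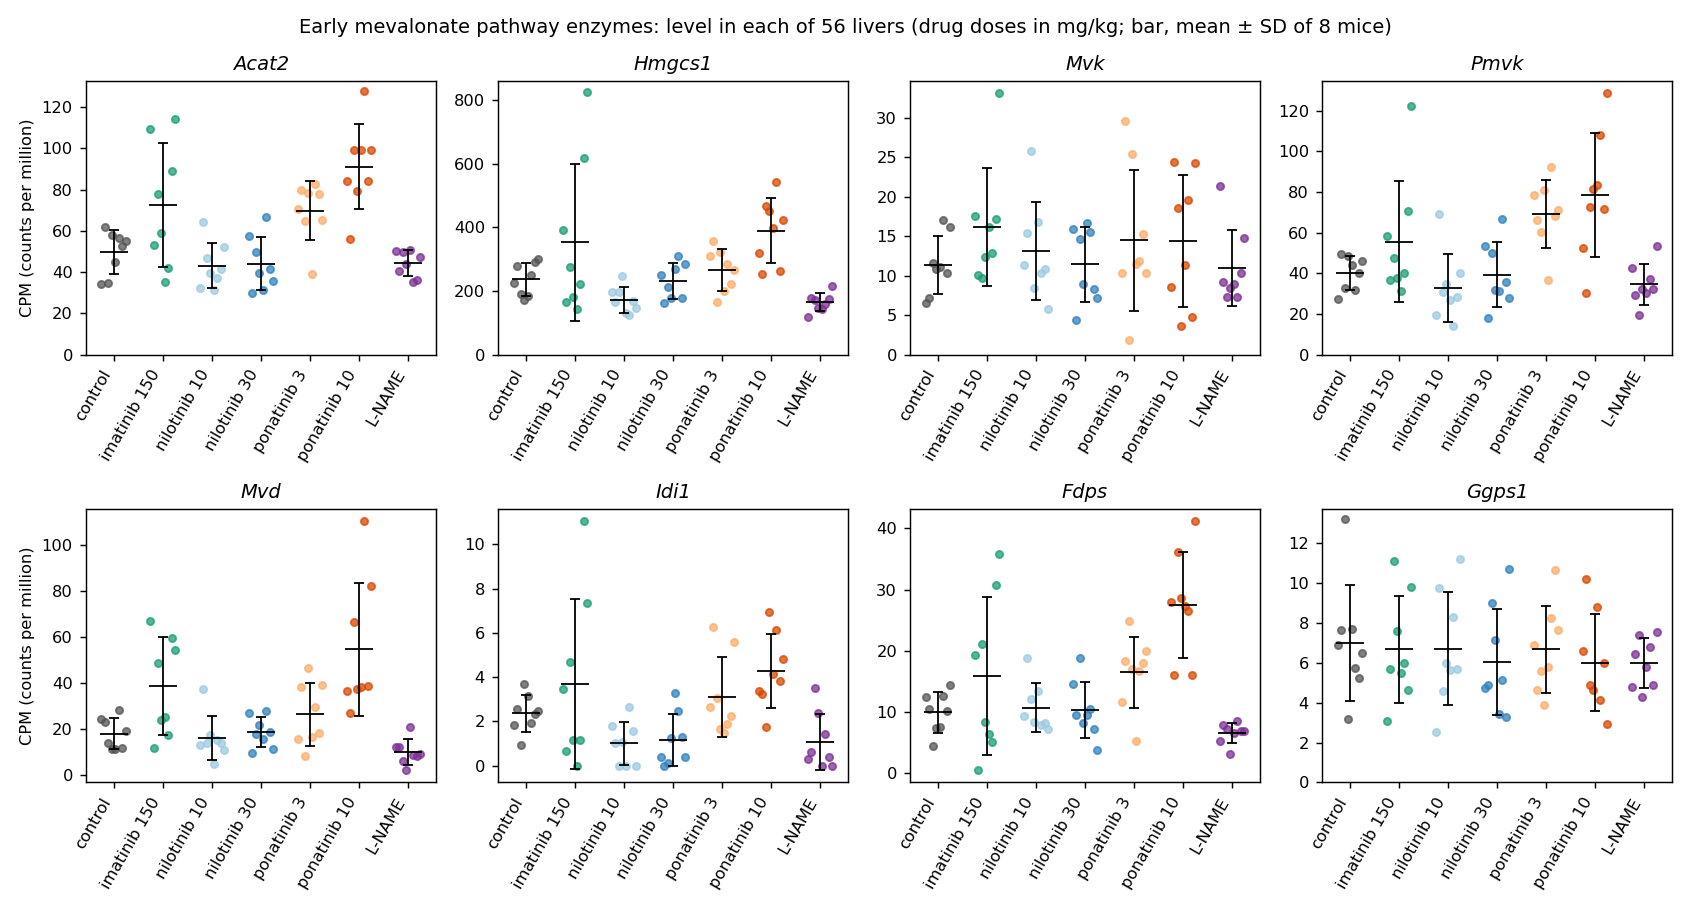
Level of each member in each liver (CPM, vertical axis, 1 panel per gene with its own scale starting near 0) by group (horizontal axis, drug doses in mg/kg); points are livers and bars the mean ± SD of 8 mice. The ponatinib 10 mg/kg group has the highest mean for Acat2, Hmgcs1, Pmvk, Mvd, Idi1 and Fdps. The imatinib livers are widely spread, with the highest single value for Hmgcs1 (825 CPM), and group means of Ggps1 lie between 5.99 and 7.01 CPM.

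The share of reads outside genes moved with treatment: it averaged 7.97% ± 0.42 (SD, n = 8) in controls and 11.0% ± 1.99 with ponatinib 10 mg/kg, with group means of 8.53 to 11.0% in the other treated groups. Across the 56 livers no member followed this share closely (r from -0.19 to 0.10). These r values include the differences between groups. L-NAME also averaged 11.0%, and all 8 members had negative log2 fold changes there. Whether a member followed the share within groups was not tested. With the share as a covariate, Acat2, Hmgcs1, Mvd and Fdps remained called with ponatinib 10 mg/kg and Pmvk did not (log2 fold change 0.95, adjusted p = 0.0696).

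With imatinib at 150 mg/kg the livers were widely spread. The 2 members called were Acat2 and Mvd, both higher, against 5.69% of all genes called higher. At the unadjusted cut-off of 0.01 the count was also 2, against 6.85%. Acat2 had 35.2, 68.4 and 114 CPM as lowest, median and highest value, and 4 of the 8 livers lay above every control (log2 fold change 0.54 ± 0.18, adjusted p = 0.0468; exact permutation p = 0.0917). Mvd had 11.4, 36.9 and 66.9 CPM, again with 4 livers above every control (1.10 ± 0.35, adjusted p = 0.0295; exact permutation p = 0.0287). Fdps ranged from 0.53 to 35.8 CPM, with 4 livers above every control and 1 below all of them. Its fitted log2 fold change of 0.67 did not pass (adjusted p = 0.238), and the mean log2 CPM of the groups differed by 0.06. Hmgcs1 had 145, 250 and 825 CPM (log2 fold change 0.58, edgeR adjusted p = 0.0865, exact permutation p = 0.357). Of its livers, 3 lay above and 2 below every control. The remaining members lay between -0.07 for Ggps1 and 0.64 ± 0.73 for Idi1 (edgeR adjusted p = 0.662). For Idi1 the mean log2 CPM of the groups differed by -0.17 (exact permutation p = 0.827), and 1 imatinib liver had no read. Acat2 was lost in 10 of the 16 fits that left out 1 mouse (control 1, 3, 5, 6, 7 and 8, imatinib 1, 3, 7 and 8, adjusted p up to 0.149). Mvd was lost in 7 (control 4, 5 and 7, imatinib 1, 3, 7 and 8, adjusted p up to 0.0896). Hmgcs1 was called without imatinib mouse 2, 4 or 5 (adjusted p from 0.0384). In the other fits Hmgcs1 was not called, with a log2 fold change down to 0.26 and an adjusted p up to 0.463. Neither Acat2 nor Mvd passed with the share of reads outside genes as a covariate (log2 fold changes 0.52 and 1.01, adjusted p = 0.119 and 0.0971). Acat2 also failed without the low-count filter (0.53, 0.0592), in the fit without L-NAME mice (0.54, 0.0609) and in the fit of these groups alone (0.54, 0.0842). Mvd remained called in these fits and in the fit with Acat3 added. The sum of Acat2 and Acat3 had 0.21 (adjusted p = 0.217), and Acat3 alone 0.09. That sum is drawn toward Acat3 and does not test the Acat2 call.

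Ponatinib at 3 mg/kg gave 0 called members in edgeR, with 3 at an unadjusted p below 0.05, 0 by DESeq2 and 1 by limma voom; 0.0419% of all genes were called. At the unadjusted cut-off of 0.01 the count was 1 of the 8 members, Pmvk, against 1.4% of all genes higher. It had 36.7, 69.7 and 92.6 CPM at this dose, with 7 of the 8 livers above every control and a log2 fold change of 0.79 ± 0.25 (adjusted p = 0.237; exact permutation p = 0.0014). Acat2 showed the like arrangement, with 39.1, 74.2 and 82.9 CPM and 7 livers above every control (0.49 ± 0.18, adjusted p = 0.318). For Fdps 6 livers lay above every control (0.72 ± 0.35, adjusted p = 0.485), and Hmgcs1 differed least among these (0.17, adjusted p = 0.876). The other members gave 0.56 for Mvd, 0.40 for Idi1, 0.36 for Mvk and -0.07 for Ggps1.

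Between the ponatinib doses, 0 members were called in edgeR, with 4 at an unadjusted p below 0.05, 0 by DESeq2 and 1 by voom; 1.39% of all genes were called. Mvd had the largest difference, 1.05 ± 0.34 on the log2 scale higher at 10 mg/kg (adjusted p = 0.108; exact permutation p = 0.0146), and all 8 livers at 10 mg/kg lay above the mean of the lower dose. Fdps was 0.74 ± 0.35 apart (adjusted p = 0.315), Hmgcs1 0.55 ± 0.22 (0.215) and Acat2 0.38 ± 0.18 (0.321). For Pmvk the difference was 0.18 (95% interval -0.32 to 0.68).

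With nilotinib no member passed at either dose. At 10 mg/kg edgeR called 0 members, with 1 at an unadjusted p below 0.05 and 0 by DESeq2 or voom, while 1.41% of all genes were called. That member was Hmgcs1, with 124, 168 and 247 CPM and 5 livers below every control (log2 fold change -0.46 ± 0.22, adjusted p = 0.329). Idi1 had no read in 3 of the 8 livers (-1.22 ± 0.75, adjusted p = 0.498; exact permutation p = 0.0132, 3 of the 8 livers below every control), and the other 6 members lay between -0.28 and 0.21. At 30 mg/kg the counts were 0 called, 0 at an unadjusted p below 0.05 and 0 by DESeq2 or voom, against 5.77% of all genes called. Idi1 had the largest difference, with 0, 0.81 and 3.27 CPM and 4 of the 8 livers below every control (-1.04 ± 0.75, adjusted p = 0.51; exact permutation p = 0.0207). Hmgcs1 lay at 163, 232 and 311 CPM (-0.03, 95% interval -0.48 to 0.41), Mvd at 0.06 (-0.64 to 0.76) and Fdps at 0.04 (-0.67 to 0.74), and the remaining members between -0.21 and 0.01. Between the nilotinib doses edgeR called 0 members, with 0 at an unadjusted p below 0.05 and 0 by DESeq2 or voom; 0% of all genes were called (812 at an unadjusted p below 0.05, 2 by DESeq2, 0 by voom).

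With L-NAME all 8 members had negative log2 fold changes, from -1.12 for Idi1 to -0.06 for Mvk, with a median of -0.38 against 0.02 for all genes, but edgeR called 0 of them. At an unadjusted p below 0.05 the count was 2, DESeq2 called 0 and voom 2 (Hmgcs1 and Idi1), while 11.8% of all genes were called. Hmgcs1 had 120, 167 and 215 CPM, all 8 livers lying below the control mean (-0.53 ± 0.22, adjusted p = 0.116; exact permutation p = 0.00357). Mvd had 1.98, 8.82 and 20.9 CPM with 5 livers below every control (-0.86 ± 0.35, adjusted p = 0.104), and without L-NAME mouse 5 it was called (-1.11, adjusted p = 0.0355). Idi1, at 0, 0.5 and 3.50 CPM, was below every control in 5 livers (-1.12 ± 0.74, adjusted p = 0.386; exact permutation p = 0.0154). Fdps, at 3.13, 6.92 and 8.48 CPM, was below the control mean in 8 of 8 livers (-0.61 ± 0.36, adjusted p = 0.309). With its pseudogenes added Fdps was called (-0.76, adjusted p = 0.0278). Acat2 had -0.17, Acat3 alone 0.27, and their sum 0.17 (adjusted p = 0.335). Both the fit of these groups alone and the sum with copies called 1 member, Hmgcs1 in the former (adjusted p = 0.00838) and Fdps in the latter.

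**Figure D3:**
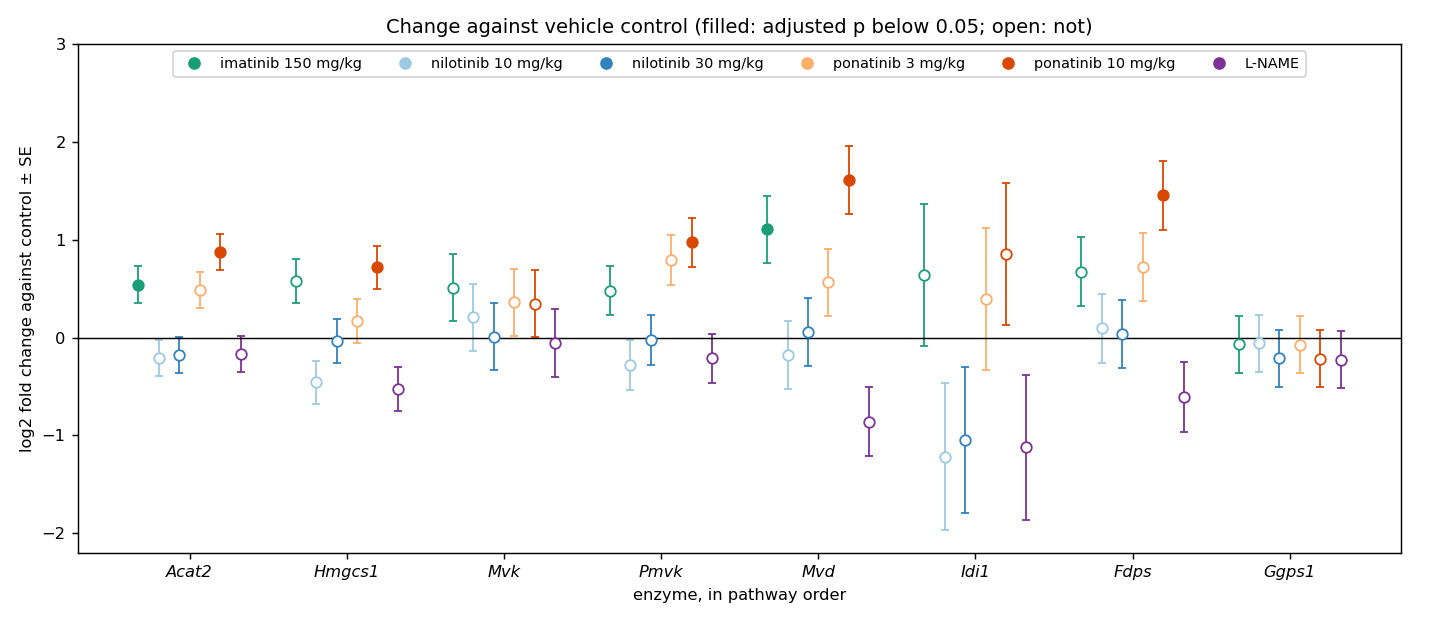
Log2 fold change of each member against control ± SE (vertical axis) in the 6 treated groups (colours), members in pathway order (horizontal axis); filled points passed an adjusted p of 0.05. Filled points are the 5 members with ponatinib 10 mg/kg and Acat2 and Mvd with imatinib; all L-NAME points lie below 0.

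Nilotinib and ponatinib were both given at 10 mg/kg 1 time a day, which allows a comparison at a matched nominal dose. Exposure was not matched, since the paper calculated a higher plasma exposure for nilotinib than for ponatinib at this dose. The paper describes nilotinib exposure at 10 mg/kg, its low dose, as similar to that in patients, although the value lay below the patient mean it cites. For ponatinib 10 mg/kg was the high dose, and its exposure lay above the patient value cited. Ponatinib gave the higher level for 5 of the 8 members, against 1.03% of all genes, and DESeq2 and voom also called 5. The log2 difference was 1.08 ± 0.19 for Acat2 (2.11-fold, adjusted p = 0.000714), 1.18 ± 0.22 for Hmgcs1 (2.26-fold, 0.00198), 1.25 ± 0.26 for Pmvk (2.38-fold, 0.00388), 1.79 ± 0.35 for Mvd (3.46-fold, 0.00261) and 1.36 ± 0.35 for Fdps (2.56-fold, 0.0238). For Hmgcs1 the lowest value under ponatinib was 253 CPM and the highest under nilotinib 247 CPM. The share of all genes that separate in this way was not computed for this comparison. Idi1 was 2.07 higher (95% interval 0.53 to 3.60, adjusted p = 0.139). For Mvk the difference was 0.14 (-0.55 to 0.83) and for Ggps1 -0.16 (-0.75 to 0.43). Fdps lost its call in 4 of 16 fits without a mouse (ponatinib mice 3 and 8, nilotinib mice 4 and 6, adjusted p up to 0.0632). The sum of Acat2 and Acat3 differed by 0.37 (adjusted p = 0.0496), and Acat3 alone by 0.10.

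The other pairs of drugs differed in dose or schedule as well as compound, so the values below compare those groups and not the compounds at 1 dose. Ponatinib at 10 mg/kg was above nilotinib at 30 mg/kg for 4 members, against 0.922% of all genes. These were Acat2 (1.05), Pmvk (1.00), Mvd (1.55) and Fdps (1.42). The sum of Acat2 and Acat3 had 0.20 (adjusted p = 0.401), and Acat3 alone -0.10. Pmvk lost this call without nilotinib mouse 2, 7 or 8 or ponatinib mouse 6 or 8 (adjusted p up to 0.0767), Fdps without nilotinib mouse 7 or 8 or ponatinib mouse 8 (up to 0.0558), and Hmgcs1 gained it without nilotinib mouse 6 or ponatinib mouse 2 (from 0.0341). Imatinib at 150 mg/kg was above nilotinib at 30 mg/kg for 1 member, Acat2 (0.72 ± 0.19, adjusted p = 0.015). This direction was called for 1.22% of all genes. The sum of Acat2 and Acat3 had 0.03 (adjusted p = 0.926), and Acat3 alone -0.19 (adjusted p = 0.53). The Acat2 call was lost without imatinib mouse 1 or 8 (adjusted p up to 0.062). Mvd gained a call without imatinib mouse 2 or 6 (from 0.0387). Between ponatinib at 10 mg/kg and imatinib, edgeR called 0 members, with 1 at an unadjusted p below 0.05, 0 by DESeq2 and 1 by voom (Fdps), against 1.08% of all genes. Mvd differed by 0.51 there (95% interval -0.18 to 1.19).

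When the 7 groups were ranked by mean log2 CPM, ponatinib 10 mg/kg ranked highest for 6 members and L-NAME lowest for 4. Of the 48 steps between neighbouring groups, 1 passed at an adjusted p below 0.05, that of imatinib over control for Acat2, and 4 had an unadjusted p below 0.05. The order for Mvd was ponatinib 10 mg/kg, imatinib, ponatinib 3 mg/kg, nilotinib 30 mg/kg, control, nilotinib 10 mg/kg and L-NAME, with mean levels of 54.6, 38.4, 26.4, 18.6, 17.8, 15.8 and 9.82 CPM, and no step between neighbours passed. Hmgcs1 ranked ponatinib 10 mg/kg, imatinib, ponatinib 3 mg/kg, control, nilotinib 30 mg/kg, nilotinib 10 mg/kg and L-NAME, again without a step that passed.

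The members also varied together from liver to liver. After group means were removed, the 28 pairs of members had r between -0.16 and 0.76 with a median of 0.32, and 20 were above 0; all values come from the same 56 libraries. Acat2 and Hmgcs1 followed the mean of the other members most closely (r = 0.84 and 0.82 over 56 livers, 0.72 and 0.71 within groups). Over the 56 livers Mvk (0.28) and Ggps1 (-0.09) followed it least, and these are the members with the highest p among groups. Those r values include the differences between groups. Within groups the lowest were Ggps1 (-0.13), Idi1 (0.26) and Mvk (0.30). The genes most like the members' mean standardized log2 CPM over the 56 livers, out of 14306 other genes, were Cyp51 (r = 0.91), Sqle (0.90), Gm3571 (0.89), Lss (0.87), Dhcr7 (0.83), Msmo1 (0.83), Nsdhl (0.83), Rdh11 (0.83), Tm7sf2 (0.79) and Fdft1 (0.79). Of these 10, 8 belong to the sterol branch listed below, and Gm3571 is the pseudogene of Fdps.

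The rest of the pathway was described from lists of genes by role. With ponatinib 10 mg/kg, 8 of the 11 enzymes of the sterol branch examined were higher (7.24% of all genes), with a median log2 fold change of 0.90. Sqle, squalene epoxidase, changed by 1.34 ± 0.39 (adjusted p = 0.0145), Nsdhl by 0.98 (0.00405), Cyp51, lanosterol demethylase, by 0.96 (0.00578), and Hsd17b7 had 0.32 (0.242). With imatinib 4 of the 11 were higher (Fdft1, Cyp51, Tm7sf2, Msmo1), beside 5.69% of all genes. With L-NAME 2 were lower (Sqle at -1.32 and Hsd17b7 at -0.68), beside 6.24% of all genes. At the matched nominal dose of 10 mg/kg, ponatinib was above nilotinib for 11 of the 11 (1.03% of all genes). The members' median difference of 1.21 stood beside 1.14 for this list.

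Of 7 genes that control SREBP-2 or carry sterols, Insig1 was higher with ponatinib 10 mg/kg (0.69, adjusted p = 0.0213) and Mbtps1 lower. In that comparison 7.24% of all genes were higher and 5.87% lower. Mbtps1 was also lower with L-NAME, beside 6.24% of all genes. Srebf2, which encodes SREBP-2, had -0.15 with ponatinib 10 mg/kg (adjusted p = 0.592) and was lower with nilotinib 10 mg/kg (-0.68, 0.0148), nilotinib 30 mg/kg (-0.49, 0.043) and L-NAME (-0.62, 0.00439), comparisons in which 0.943%, 3.43% and 6.24% of all genes were lower. Stard4, a sterol carrier, had 0.34 with ponatinib 10 mg/kg (adjusted p = 0.208). Of the 3 genes that supply cytosolic acetyl-CoA, Slc25a1, the citrate carrier, was higher with ponatinib 10 mg/kg (0.51, adjusted p = 0.00205), and Acly, ATP citrate lyase, was lower with both nilotinib doses (-1.30 and -1.15) and L-NAME (-1.71). Of the 12 genes that use isoprenoids outside the sterol branch, 1 was called, Rabggtb, a subunit of the Rab prenylating enzyme, higher with imatinib (0.46) and with ponatinib 10 mg/kg (0.56), beside 5.69% and 7.24% of all genes.

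**Figure D4:**
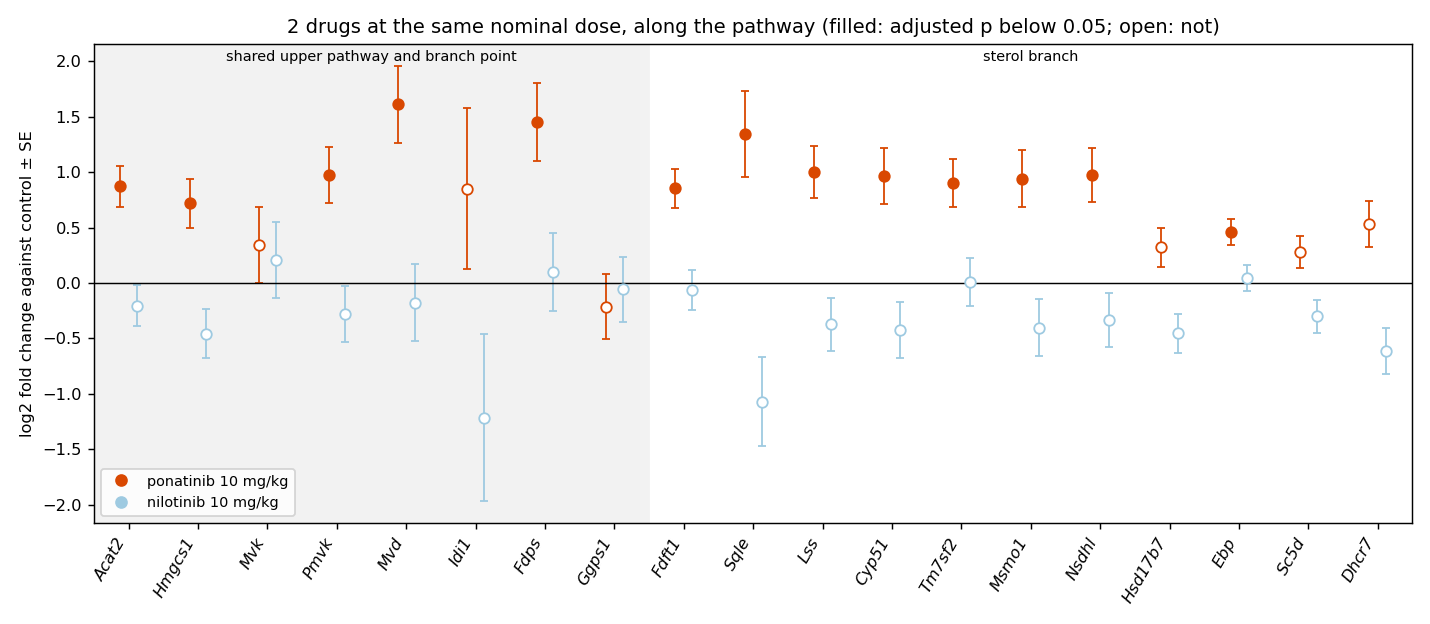
Log2 fold change against control ± SE (vertical axis) with ponatinib and nilotinib, both at 10 mg/kg, for the members and the 11 sterol branch genes (horizontal axis, pathway order, shaded for the upper pathway); filled points passed an adjusted p of 0.05. Ponatinib points lie above nilotinib points for all genes except Ggps1, and the nilotinib points are open.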

How the data were processed

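Livers of 56 mice (7 groups of 8) were profiled by poly(A) RNA sequencing. The deposited values were raw read counts per gene, which the authors made with TopHat2 2.0.14 and Bowtie2 2.1.0 on GRCm38, SAMtools 0.1.18 and HTSeq 0.6.1p1; the strand setting is not given in the sources used here. Groups followed the labels. Replicate numbers only name mice, and no batch label was given. Symbols came from GENCODE vM21 (44585 of 45513 identifiers). Rows that name no gene were left out of library sizes; reads outside genes made up 7.55 to 16.8% of uniquely placed reads. The paper's supplement states that mice shared cages, but the labels give no cage or litter for any liver. All tests therefore treated livers as independent and weighed group differences against the spread between livers.

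All genes passing filterByExpr (14314) entered 1 edgeR 4.0.16 quasi-likelihood fit of the 7 groups with TMM scaling (R 4.3.3), and p-values were Benjamini-Hochberg adjusted over all of them within a comparison (threshold 0.05). Intervals are 95% from the SE with 49 residual degrees of freedom. CPM values used TMM library sizes, and log2 CPM a prior count of 2. Exact two-sided permutation tests used all 12870 divisions of 16 mice. Idi1 had a median of 18 reads per liver, and its fitted biological coefficient of variation was 0.905. DESeq2 1.42.0, limma 3.58.1 voom with quality weights, other filters, scalings and thresholds, and leaving out each mouse were alternatives; summing reads with near-identical copies was chosen after seeing the data. Fitting was tested on simulated data. No 2 files held identical counts. Some genes of the pathway lists are not reported here. The members and all gene lists were chosen with earlier results of these data known. All 8 members are named; of other lists at most the 4 genes with the smallest p among groups, plus those named to resolve a count of 5 or fewer, which were chosen after their values were seen.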

Additional observations from a re-analysis of the deposited data

Results flagged for a closer look

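Within-group extremes were looked for by Dixon's ratio, computed on log2 CPM, in all 56 combinations of 8 members and 7 groups. Extremes were found in 3, which is near the share of about 1 in 20 combinations that chance alone gives. All were lowest values in the group on ponatinib 3 mg/kg. Acat2 was at 39.1 CPM in mouse 5, while the other 7 livers lay between 64.9 and 82.9 CPM. In the same mouse Pmvk was at 36.7 CPM against 60.2 to 92.6 CPM in the others. Mvk was at 1.82 CPM in mouse 3 against 10.3 to 29.5 CPM in the others.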

How the results depend on the processing

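The counts of members called were recomputed 138 times under alternatives other than leaving out a mouse, and 121 stayed within 1.5 times the value reported. With ponatinib 10 mg/kg against control the count stayed between 4 and 5 when each mouse was left out. The imatinib count of 2 fell to 1 without the low-count filter, without L-NAME mice (48 mice) and with only the groups compared. Acat2 was the call lost in each. With copies summed the count was also 1, but there Acat2 stands for its sum with Acat3, which is drawn toward Acat3. The imatinib count was 0 with the share of reads outside genes as a covariate or at an adjusted p below 0.01. It ranged from 0 to 3 when a mouse was left out. The ponatinib 3 mg/kg count of 0 was 1 with voom and at an unadjusted p below 0.01. The L-NAME count of 0 was 1 in a fit of only the groups compared and with copies summed, 2 with voom, and 0 to 1 when a mouse was left out. Between ponatinib doses it was 1 with voom and at an unadjusted p below 0.01. Ponatinib 10 mg/kg against nilotinib 30 mg/kg went from 4 to 2 at an adjusted p below 0.01 and ranged from 2 to 5 without a mouse. Against imatinib it went from 0 to 1 with voom. Imatinib against nilotinib 30 mg/kg went from 1 to 3 at an unadjusted p below 0.01 and to 0 at an adjusted p below 0.01, with 0 to 2 without a mouse. For the 35 log2 fold changes of single members with an unadjusted p below 0.05, recomputing gave 291 values with the same direction and call, 11 that lost the call, 10 that gained it and 0 that changed sign; without a mouse the numbers were 520, 32, 8 and 0. Differences nearer 0 were not counted there. With L-NAME, Acat2 had -0.17 and its sum with Acat3 0.17. The causes were not tested. No paired analysis was possible because the labels pair no mice across groups. Idi1 had the fewest reads of the members, a median of 18 per liver.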
